A study of Mus musculus with 4 samples.

Results

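Nnat and 9 other imprinted genes (Meg3, Rian, Mirg, Peg3, Plagl1, Grb10, Gnas, Dlk1 and Impact) were followed by symbol through single-cell RNA counts of mouse pancreatic islets. All 10 symbols were found in each of the 4 samples, among 21594 gene symbols in all. The genes were chosen by measured values of these same data, namely their levels across hormone-defined cell types, their spread among beta cells and their difference between mutant and control sums. Those values are therefore given as descriptions without a test. The mutants were Atf4F/F; Ins1Cre mice and the controls Atf4F/F mice without Cre, so both groups carried floxed Atf4 alleles. Ins1Cre drives Cre recombinase from the Ins1 insulin gene and so targets beta cells. Atf4 encodes a transcription factor that cells make when stress slows translation. The mice were untreated and 2 months of age. Islets of several mice made up a sample, and the labels put them at 2 males plus 2 females or, elsewhere, at 3 to 4 mice. There were 2 such pools per genotype, here mutants 1 and 2 and controls 1 and 2, and values over all pools are given in that order. Beta cells positive and negative for tdT went into the same library, as did 10% cells of the human leukaemia line K562, and neither was analysed here.

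An imprinted gene is transcribed mainly from the allele inherited from 1 parent, an arrangement kept by DNA methylation that is set in the germ line. Nnat encodes neuronatin, a small membrane protein of the endoplasmic reticulum that binds the signal peptidase complex and aids processing of the insulin precursor in beta cells. Dlk1, Meg3, Rian and Mirg lie in 1 imprinted domain, where Dlk1 is expressed from the paternal allele and the noncoding RNAs Meg3, Rian and Mirg from the maternal allele. Peg3 and Plagl1 encode zinc finger proteins, Grb10 an adaptor that restrains signalling by the insulin and IGF1 receptors, and Gnas the stimulatory G protein subunit that couples glucagon and incretin receptors to cAMP. Impact encodes an inhibitor of Gcn2, a kinase that acts upstream of Atf4. Counts per gene do not separate the parental alleles, so imprinting itself was not measured.

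Nnat (chromosome 2, 157560078 to 157562522, plus strand of the GRCm38 assembly, or mm10) lies wholly inside Blcap (157556362 to 157571274, minus strand). Grb10 lies on chromosome 11 (11930508 to 12038683, minus strand) and Dlk1 on chromosome 12 (109452823 to 109463336, plus strand). Meg3 (109541001 to 109571726), Rian (109603940 to 109661716) and Mirg (109729764 to 109749460) follow Dlk1 on the same strand. Gnas (chromosome 2, 174284320 to 174346744) is listed with 24 transcripts, which counts per gene cannot separate, and is overlapped by the antisense gene Nespas. Peg3 lies on chromosome 7 and Plagl1 on chromosome 10. The strand setting of the counting is not given in the sources used here, so reads of Nnat and Blcap, or of Gnas and Nespas, cannot be told apart where they overlap.

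The 250 bases before the RefSeq start (GRCm38.p6) are shown for Nnat, Grb10 and Dlk1, the 3 genes whose beta-cell levels were lower in both mutants than in both controls. They are the windows chr2:157559828-157560077 (plus strand), chr11:12037421-12037670 (minus strand) and chr12:109452573-109452822 (plus strand), each the first entry of its gene, 5′ to 3′ on the gene's own strand. Capitals mark CpG, the dinucleotide at which imprinted genes carry methylation.
Nnat: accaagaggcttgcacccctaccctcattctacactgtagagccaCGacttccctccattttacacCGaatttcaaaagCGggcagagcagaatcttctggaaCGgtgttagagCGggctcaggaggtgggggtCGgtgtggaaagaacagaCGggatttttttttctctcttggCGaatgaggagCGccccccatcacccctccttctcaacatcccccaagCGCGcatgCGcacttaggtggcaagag
Grb10: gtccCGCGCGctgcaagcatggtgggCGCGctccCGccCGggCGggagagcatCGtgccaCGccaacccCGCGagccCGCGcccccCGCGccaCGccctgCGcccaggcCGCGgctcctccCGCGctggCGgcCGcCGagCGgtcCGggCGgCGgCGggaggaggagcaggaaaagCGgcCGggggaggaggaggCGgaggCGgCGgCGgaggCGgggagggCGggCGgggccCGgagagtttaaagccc
Dlk1: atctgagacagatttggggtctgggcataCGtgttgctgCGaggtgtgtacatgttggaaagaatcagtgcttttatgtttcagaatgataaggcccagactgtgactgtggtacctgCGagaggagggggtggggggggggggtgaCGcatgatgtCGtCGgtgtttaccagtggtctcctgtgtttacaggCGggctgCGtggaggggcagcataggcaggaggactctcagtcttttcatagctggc
The Nnat window held 12 CpG, and 33.5% of the 32851 windows of the same length before annotated mouse starts held at least as many. The Grb10 window held 40, a number reached or passed by 1.31% of all windows, and the Dlk1 window 8, reached or passed by 43.0%. The letters TGATGNAA, a core of the element that Atf4 binds with C/EBP partners, were searched on both strands. They occurred in none of the windows of the 9 members with an entry searched, and in 3.45% of all windows. This says only that these letters are not in these windows.

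The files held 11114 barcodes, with 13706563 to 17655893 unique molecular identifiers (UMIs) per sample. Of these barcodes 6995 passed a filter on genes and mitochondrial counts, and 5916 got 1 hormone class from their share of insulin, Gcg, Sst or Ppy counts. None of the 10 genes took part in this. The beta-like class held 4815 cells (889, 1063, 1475 and 1388 in the 4 pools), the alpha-like class 714, the delta-like class 274 and the PP-like class 113. A further 796 cells carried 2 hormones and were left out. The classes rest on hormone counts alone, 68 cells lay near the minimum share and 345 near the limit for a second hormone. Between 14 and 35 barcodes were shared by each pair of samples. Levels are UMIs in 1000000 UMIs of the summed cells of a sample and class (CPM), and sums of fewer than 20 cells were not used.

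The Atf4 level set mutant 2 apart from mutant 1. In beta-like cells Atf4 stood at 6.67 CPM in mutant 1 and 119 CPM in mutant 2, and at 335 and 362 CPM in the controls. Within mutant 2 it stood at 10.6 CPM in female and 188 CPM in male beta-like cells, told apart by Xist and Y-linked counts. The beta-like changes of Nnat and Grb10 are therefore also given without it, as are some other results, but not all.

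Nnat was counted in beta-like and delta-like cells and was close to absent from alpha-like and PP-like cells. In beta-like cells it stood at 25.8 CPM in mutant 1, 33.8 CPM in mutant 2, 141 CPM in control 1 and 139.5 CPM in control 2. In delta-like cells, in the same order, it stood at 107, 90.4, 186 and 146.5 CPM (28, 36, 44 and 25 UMIs). The delta-like mean of 133 ± 42.6 CPM (SD, n = 4) exceeded the beta-like mean of 85.1 ± 63.9 CPM (SD, n = 4), but the samples overlapped. The 714 alpha-like cells together held 6 Nnat UMIs, with 3.35, 0, 1.30 and 2.44 CPM per sample, and all 4 beta-like sums lay above all 4 alpha-like sums. With Leiden clusters in place of hormone gates, which keep cells of 2 hormones, the alpha-like sums held 7.20 to 56.4 CPM and overlapped the beta-like ones. The PP-like sums of mutant 1 and control 1, the only pools with 20 PP-like cells or more, held no Nnat UMI in 80 cells, and over all 113 PP-like cells 1 had a UMI, a share of 0.885% (exact Clopper-Pearson 95% interval 0.0224% to 4.83%, counting error only). Of 170 endothelial-like and macrophage-like cells, which should lack the gene, 1.76% had a Nnat UMI (exact Clopper-Pearson 95% interval 0.365% to 5.07%, median depth 2104.5 UMIs). In alpha-like cells the share was 0.840% (0.309% to 1.82%, median depth 3863.5 UMIs), no higher than that background, whereas it was 26.5% in beta-like cells (25.2% to 27.8%, median depth 6453 UMIs) and 26.3% in delta-like cells (21.2% to 31.9%, median depth 2854.5 UMIs).

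The delta-like class was checked against markers other than Sst. Of the 5 delta-cell markers, Hhex, a transcription factor that defines delta cells, stood at 286 to 404 CPM in its sums. Rbp4 stood at 2862 to 5010 CPM there, the largest part of the list. Sstr3 was lower in delta-like sums (57.6 to 115.5 CPM) than in beta-like sums (117.8 to 125.3 CPM). Ghsr stood at 4.23 to 35.2 CPM and Cckbr at 0 to 4.23 CPM in the delta-like sums. Of the 8 beta-cell markers, 7 had counts there, with a summed level of 18197 to 25401 CPM against 56756 to 62086 CPM in beta-like cells. Nearly all of it was Iapp (17943 to 25160 CPM), while Mafa had no UMI and Ucn3 stood at 10.0 to 33.8 CPM. The list of 4 PP-cell markers summed to 32429 to 38320 CPM there, above the 3314 to 5555 CPM of the 5 delta-cell markers and below the 117123 to 132111 CPM of PP-like cells. Most of it was Pyy (32141 to 38053 CPM), and the hormone Ppy itself stood at 11679 to 13460 CPM. Haemoglobin genes reached 17152 CPM in the delta-like sum of control 2 and 0 to 2.51 CPM in the others. With the second hormone held under 10% of the first, Nnat in delta-like cells was 107, 88.3, 196 and 123 CPM in the same order, close to the values above.

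**Figure D1:**
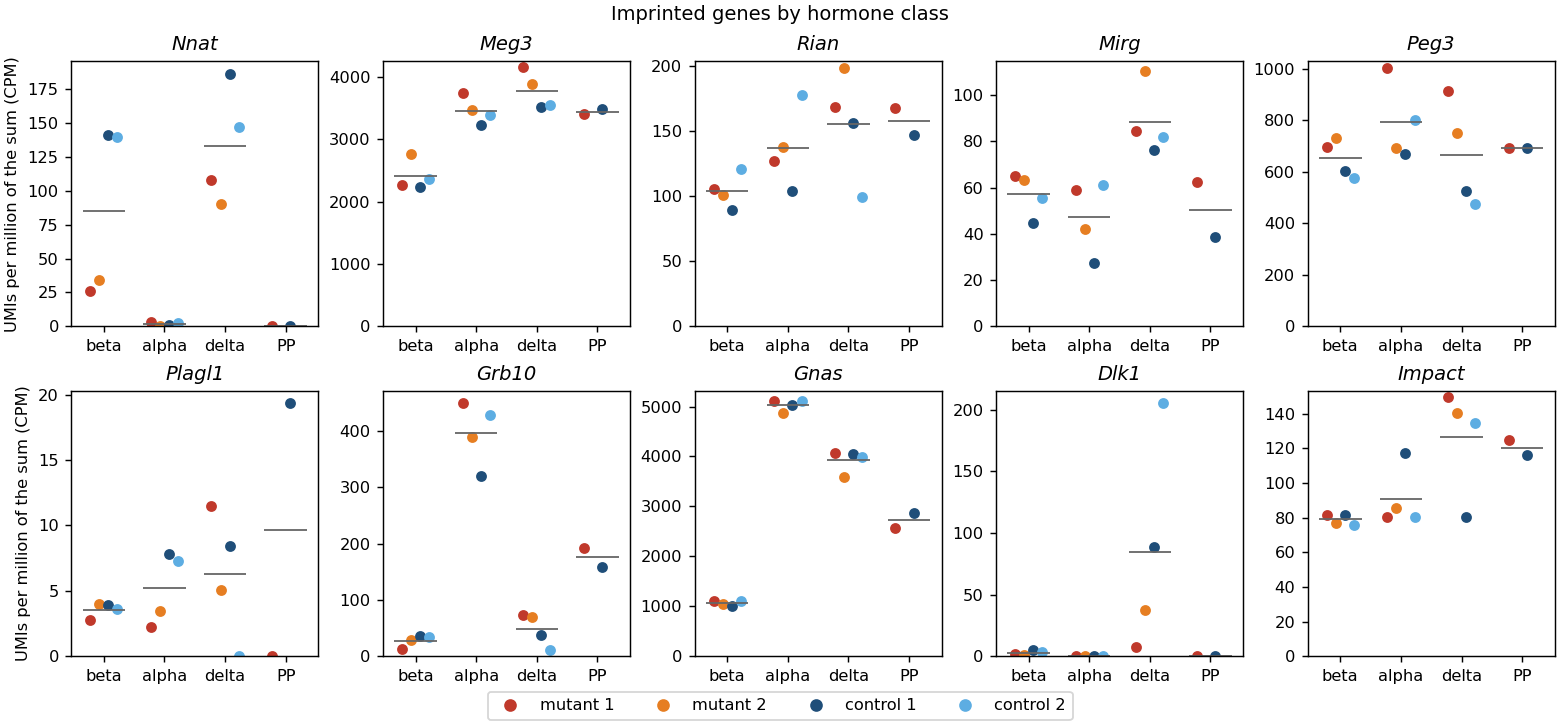
Levels of the 10 imprinted genes in UMIs per 1000000 UMIs (CPM, linear axes that start at 0 and differ between panels) for each hormone class, with 1 point per sample and a bar at the mean of the samples. Nnat is highest in delta-like and beta-like cells, Dlk1 in delta-like cells, Grb10 and Gnas are highest in alpha-like cells, and PP-like points come from 2 samples.

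Grb10 and Gnas, which act in insulin and cAMP signalling, were highest in alpha-like cells and, by the mean over all pools, lowest in beta-like cells. Grb10 stood at 449, 389.9, 319 and 428 CPM in alpha-like cells of the 4 pools, and at 11.9, 28.2, 35.8 and 34.5 CPM in their beta-like cells. The alpha-like mean was 397 ± 57.2 CPM (SD, n = 4), followed by 175 ± 23.5 CPM in PP-like cells (SD, n = 2), 48.3 ± 29.1 CPM in delta-like cells (SD, n = 4) and 27.6 ± 10.97 CPM in beta-like cells (SD, n = 4). The delta-like and beta-like samples overlapped, and the other neighbours in this order did not. The order of these 2 classes differed between genotypes. Controls averaged 35.1 CPM in beta-like and 24.9 CPM in delta-like cells, and mutants 20.1 and 71.6 CPM. Gnas, needed for glucagon and incretin receptors to raise cAMP, was 5031 ± 116 CPM in alpha-like cells (SD, n = 4), 3925 ± 223 CPM in delta-like cells (SD, n = 4), 2718 ± 215 CPM in PP-like cells (SD, n = 2) and 1066 ± 50.8 CPM in beta-like cells (SD, n = 4). No 2 neighbours in the Gnas order overlapped. Gnas was also well above background outside the endocrine cells, at 2880 ± 149 CPM in endothelial-like cells (SD, n = 4).

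The genes of the Dlk1 domain did not share 1 order. Dlk1, a transmembrane protein related to Notch ligands, stood at 7.68, 37.7, 88.8 and 205 CPM in delta-like cells of the 4 pools. These values came from 2, 15, 21 and 35 UMIs in 2, 6, 6 and 8 cells. In beta-like cells it stood at 1.44, 1.11, 4.79 and 2.99 CPM, and it had no UMI in 714 alpha-like cells, which allows a share of up to 0.4202% of cells with a UMI (3 counts of the total). A Dlk1 UMI was found in 8.03% of delta-like cells (5.10% to 11.9%) and in 1.95% of beta-like cells (1.58% to 2.38%), beside 0.588% (0.0149% to 3.23%) in endothelial-like and macrophage-like cells, with median depths of 2854.5, 6453 and 2104.5 UMIs. The last interval holds the beta-like share, so these few and shallower cells cannot set Dlk1 in beta-like cells apart from background. Over all alpha-like cells 3 UMIs would be 0.821 CPM. The beta-like level over all cells lay above that, at 2.72 CPM (2.27 to 3.24). Meg3, the most abundant of the noncoding RNAs of the domain, was lowest in beta-like cells, at 2409 ± 243 CPM (SD, n = 4), with no overlap with the next class. On counts without the hormone genes, of which insulin takes a large share in beta-like cells, it was still lowest there, at 3678 beside 4157 CPM in PP-like cells, but these samples overlapped. On all counts it stood at 3446 ± 50.2 CPM in PP-like cells (SD, n = 2), 3461 ± 219 CPM in alpha-like cells (SD, n = 4) and 3781 ± 305 CPM in delta-like cells (SD, n = 4), and these 3 classes overlapped. Rian, a host of small nucleolar RNAs, ran from 104 ± 13.05 CPM in beta-like cells (SD, n = 4) to 157 ± 14.8 CPM in PP-like cells (SD, n = 2), with overlap between all neighbours in the order. Mirg, a host of microRNAs, was highest in delta-like cells, at 88.3 ± 15.2 CPM (SD, n = 4), with no overlap with the beta-like samples at 57.0 ± 9.22 CPM (SD, n = 4). The 3 noncoding RNAs held 17, 1 and 0 UMIs in 102 endothelial-like cells, where Meg3 averaged 65.4 CPM.

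In the other 3 genes all neighbours in the order of hormone classes overlapped. Peg3 ranged from 652 ± 74.4 CPM in beta-like cells to 791 ± 152 CPM in alpha-like cells (SD, n = 4 each). Impact ranged from 79.1 ± 2.93 CPM in beta-like cells to 126 ± 31.3 CPM in delta-like cells (SD, n = 4 each). Classes that were not neighbours could differ, since Impact in PP-like sums (116 and 125 CPM) lay above all beta-like sums (76.0 to 81.7 CPM). On counts without the hormone genes Peg3 in beta-like cells (994 CPM) was no longer the lowest, above delta-like (858 CPM) and PP-like cells (834 CPM). Peg3 held 4 UMIs in the endothelial-like cells, while Impact was counted there at 58.5 ± 23.3 CPM (SD, n = 4). Plagl1 was near the limit of the counts everywhere, at 3.56 ± 0.554 CPM in beta-like cells (SD, n = 4). There 3.07% of cells had a UMI (2.60% to 3.60%), against 0.588% of endothelial-like and macrophage-like cells (0.0149% to 3.23%). The median depths were 6453 and 2104.5 UMIs. The last interval holds the beta-like share, so these few and shallower cells cannot set Plagl1 in beta-like cells apart from background.

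The genes whose level most resembled that of Nnat over the 14 sums of the 4 hormone classes were Syndig1l (Pearson r = 0.965), Insm1 (0.965), Gng4 (0.962), Nectin3 (0.945) and Ece1 (0.941). For Meg3 they were Nrip1 (0.963), Sema3e (0.961), Tpm1 (0.960), Basp1 (0.959) and Tshz2 (0.954). The measure was taken on log2(CPM + 1) over 9024 genes with a mean of at least 10 CPM. The 14 sums come from the same 4 pools and share their depth, and these values are descriptions.

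Between genotypes, Nnat in beta-like cells averaged 29.8 ± 5.72 CPM in the mutants and 140.3 ± 1.13 CPM in the controls (SD, n = 2 each), 4.71 times as high in the controls. The groups did not overlap. The edgeR log2 change was −2.35 ± 0.17 (SE), and −2.64 without mutant 2. Of 13757 genes tested in beta-like cells 0.502% passed the edgeR quasi-likelihood test at a Benjamini-Hochberg adjusted p under 0.05, 52 of them higher and 17 lower in the mutants. Nnat was the 1 member among them, and since it was picked with this difference known, nothing is read from that. Markers of several other cell types also differed without overlap in the beta-like sums. Acinar markers (8 of 9 counted in each sum) summed to 27.5 and 48.6 CPM in the mutants and 113 and 196 CPM in the controls, and macrophage markers (11 of 11) to 74.4 and 100.3 CPM and to 137 and 142 CPM. Delta-cell markers (4 to 5 of 5) summed to 168 and 199 CPM in the mutants and 229 and 248 CPM in the controls. Most of that difference was Rbp4 (42.2, 78.7, 98.1 and 123 CPM in the 4 pools), while Sstr3 overlapped (123, 118, 125 and 120 CPM). The hormone Sst overlapped too (1004, 1888, 1727 and 2139 CPM). Lymphocyte markers (3 to 6 of 8) summed to at most 11.3 CPM in the mutants and at least 17.5 CPM in the controls. Markers of alpha cells (1654, 1480, 1037 and 1206 CPM over the 4 pools) and stellate cells (16.7, 18.4, 6.35 and 14.9 CPM), with 7 of 7 counted in each, were higher in both mutants. Their part in the results for Nnat, Dlk1 and the other members was not tested.

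Blcap, the gene in which Nnat lies, was counted under its own symbol, which does not show how many reads the pair shares. It stood at 58.2, 54.9, 61.6 and 64.3 CPM in the beta-like sums of the 4 pools. Its log2 change was −0.27 ± 0.11 (SE, n = 2 per group, edgeR quasi-likelihood Benjamini-Hochberg adjusted p = 0.312). Within 200 kb of the 10 genes 21 other genes were tested in beta-like cells, and none passed. The nearest values to the threshold came from Zim1, beside Peg3, at −0.76 ± 0.17 (SE, n = 2 per group, edgeR quasi-likelihood Benjamini-Hochberg adjusted p = 0.0996), which was chosen after its value was seen.

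Grb10 and Dlk1 were also lower in both mutants than in both controls, and Mirg and Peg3 were higher. Grb10 in beta-like cells averaged 20.1 ± 11.5 CPM in the mutants and 35.1 ± 0.926 CPM in the controls (SD, n = 2 each), with mutant 1 well below mutant 2. Its log2 change was −0.90 ± 0.33 (SE), −1.75 without mutant 2 and −0.39 without mutant 1. Dlk1 changed by −1.73 ± 0.38 (SE) from 14, 12, 61 and 41 UMIs. Mirg stood at 64.8, 63.1, 44.6 and 55.6 CPM in the 4 pools, with a log2 change of 0.24 ± 0.12 (SE). For Peg3 the levels were 697, 732, 604 and 576 CPM and the log2 change 0.16 ± 0.12 (SE). In 47.2% of all genes tested the groups did not overlap, with both mutants below both controls in 11.9% and above in 35.4%. Of the 10 members, 3 had both below and 2 both above. Nothing is read from these counts, since the contrast was used to choose the members. Meg3 (0.02 ± 0.13), Rian (−0.14 ± 0.14), Plagl1 (−0.26 ± 0.30), Gnas (−0.08 ± 0.11) and Impact (−0.11 ± 0.12) had overlapping groups (log2 change ± SE). TMM scaling put the median change of all genes at 0.01 and library totals put it at 0.13. With library totals Nnat stood at −2.23, and the sign of Gnas (0.04) and Impact (0.01) turned.

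In delta-like cells Nnat averaged 98.9 ± 12.1 CPM in the mutants and 166 ± 27.9 CPM in the controls (SD, n = 2 each), with no overlap and a log2 change of −0.82 ± 0.27 (SE). Without each pool in turn the change lay between −0.98 and −0.60. In the same sums acinar markers (6 to 8 of 9 counted) stood at 296 and 133 CPM in the mutants and 482 and 498 CPM in the controls. The insulin gene Ins1 stood at 1696 and 1296 CPM and at 3297 and 3774 CPM, both without overlap. Ins2 (8049, 4495, 9122 and 9282 CPM in the 4 pools) did not overlap either. Ins1 was lower in both mutants in beta-like sums too (99959, 124704, 142103 and 141590 CPM). The summed beta-cell markers overlapped in the delta-like sums (18197, 23500, 25401 and 22537 CPM). Lymphocyte markers (0 to 34.5 CPM) and stellate markers (0 to 12.6 CPM) were higher there in both mutants. Their part in the result was not tested. Atf4 there averaged 150.5 ± 42.3 CPM in the mutants and 197 ± 38.3 CPM in the controls (SD, n = 2 each), with overlap. Dlk1 had a log2 change of −2.48 ± 0.51 (SE), with the 2 UMIs of mutant 1 the lowest count. Leaving out mutant 2 gave −4.13 and leaving out control 2 gave −1.85, the extremes over the 4 pools. Grb10 stood at 72.9, 70.3, 38.0 and 11.7 CPM (19, 28, 9 and 2 UMIs), higher in both mutants where it was lower in beta-like cells, with a log2 change of 1.37 ± 0.50 (SE), 0.85 without control 2 and 2.55 without control 1. Peg3 stood at 913, 751, 524 and 475 CPM, with a log2 change of 0.69 ± 0.18 (SE). Of the 9 members tested 8 had groups that did not overlap, beside 36.5% of the 4461 genes tested, with 6 higher in both mutants, beside 19.7%, and 2 lower, beside 16.9%. Of all genes tested 1 passed (0.0224%), and since the members were chosen on this contrast nothing is read from these counts.

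In alpha-like cells 7 members could be tested and 1 of them, Meg3, had groups that did not overlap (39.3% of all genes), with a log2 change of 0.11 ± 0.11 (SE). Grb10 changed by 0.15 ± 0.16 (SE), and Nnat, Plagl1 and Dlk1 were below the count minimum. Over all 8762 genes tested 0.24% passed and 9.74% had an unadjusted p under 0.05, and nothing is read from the members' place among them. The PP-like class was not compared between genotypes, since only 36, 18, 44 and 15 cells were found.

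**Figure D2:**
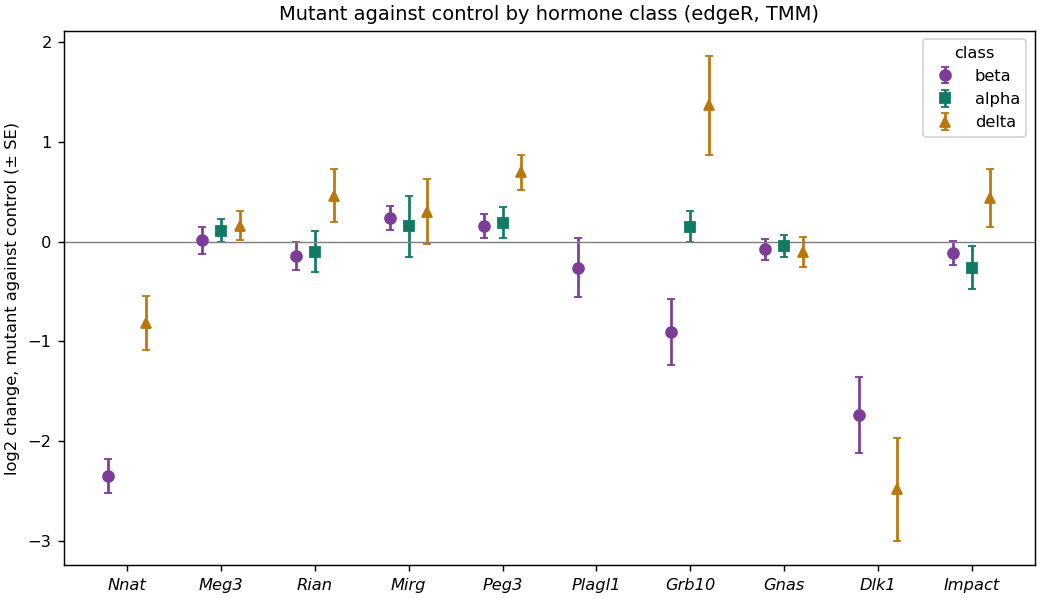
Log2 change of each imprinted gene, mutant against control, with its standard error from edgeR (n = 2 per group) in beta-like, alpha-like and delta-like cells, with no point for a gene under the count minimum. Nnat and Dlk1 lie below 0 in both classes with points, and Grb10 lies below 0 in beta-like cells and above 0 in delta-like cells.

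Counts per cell were compared after thinning each beta-like cell to 3000 UMIs, which left out 166, 198, 343 and 306 shallower cells. A Nnat UMI was then found in 4.56% and 6.47% of the cells of mutants 1 and 2 and in 24.0% and 22.4% of those of controls 1 and 2. Without thinning the shares were 10.46%, 14.8%, 35.5% and 36.2%. At least 2 Nnat UMIs were found in 1.11% and 1.16% of mutant cells and in 8.48% and 7.86% of control cells, so the shares with 1 or more and with 2 or more were both lower in the mutants. Nnat was spread unevenly among control cells. Its variance over its mean was 2.39 and 2.03 in controls 1 and 2, beside a median of 1.08 and 1.09 among genes of like mean, and above 99.9% of them in both. Spread among beta cells was used to choose the members, so this is a description and nothing is read from that rank. The 10% of cells with the highest counts held 65.4% of Nnat UMIs in each control, and the highest count in a single cell without thinning was 41. In mutants 1 and 2 the ratio was 1.50 and 1.51, at a lower mean and with a median of 1.04 among genes of like mean in both.

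Most other members were closer to the spread of genes of like mean. Grb10 had 1.53, 1.08, 1.13 and 1.24 in the 4 pools, beside medians of 1.03 to 1.06. With cells thinned to 1500 UMIs it had 1.08, 1.03, 1.08 and 1.06, beside medians of 0.98 to 1.03. With cells thinned to 6000 UMIs it had 1.35, 1.25, 1.13 and 1.33, beside medians of 1.06 to 1.08. Rian had a variance over mean of 1.06 to 1.11, Mirg of 1.03 to 1.14 and Peg3 of 1.25 to 1.41 over the 4 samples. Meg3 had 1.90 to 2.33, for which only 8 to 12 genes of like mean were found. Across the thinned beta-like cells (723, 865, 1132 and 1082), which share a library and a depth, the Pearson correlation of Nnat with Meg3 was 0.01 to 0.08 in the 4 samples and that with Rian −0.07 to 0.01. Meg3 and Mirg, which lie in the same domain, had 0.07 to 0.14 and Meg3 and Rian 0.06 to 0.13, no higher than the 0.14 reached by other pairs. In counts this sparse such values are no finding. The Nnat level also moved with depth, at 104, 89.2 and 154 CPM in cells of control 2 under 3000, of 3000 to 8000 and over 8000 UMIs, and both mutants were below both controls in each range.

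**Figure D3:**
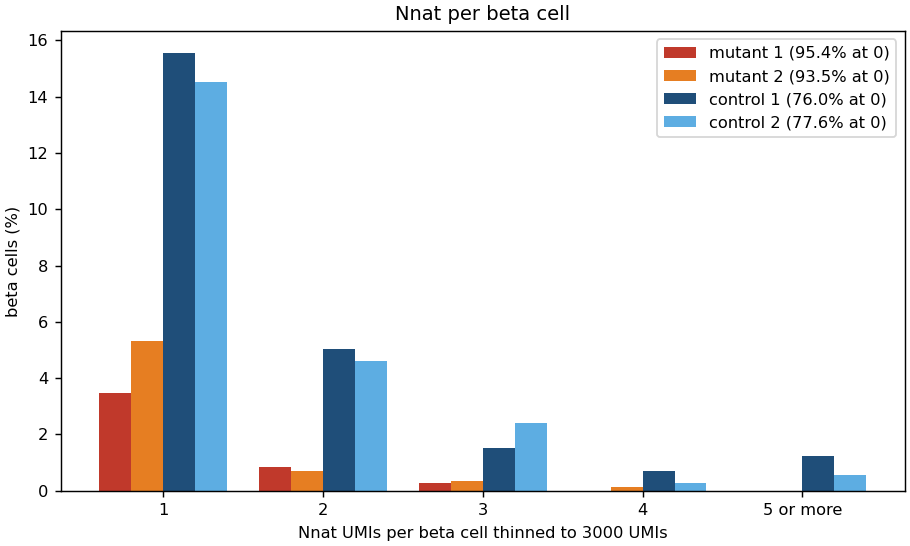
Share of beta-like cells (percent) with 1, 2, 3, 4 and 5 or more Nnat UMIs after thinning each cell to 3000 UMIs, by sample, with the share at 0 in the key. Each bar of a mutant is below the matching bars of both controls, and cells with 5 or more were found in the controls alone.

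Beta-like cells were split by sex-linked counts, since each pool held both sexes. A cell is called female if it had Xist and lacked Y-linked counts, and male if the reverse held, which places 36.1% to 50.8% of the cells of a sample, and 52 to 54 cells per sample had both. Nnat stood at 35.7 CPM in female and 11.6 CPM in male cells of mutant 1, at 25.5 and 31.2 CPM in mutant 2, at 168 and 89.2 CPM in control 1 and at 250.1 and 82.7 CPM in control 2. Female cells were thus higher in 3 of 4 samples, and lower in mutant 2, whose male cells had Atf4 at 188 CPM. The female against male log2 difference with the sample as a block was 1.00 ± 0.22 (SE), which did not pass (n = 4 pools, edgeR quasi-likelihood Benjamini-Hochberg adjusted p = 0.0745). Without mutant 2 it was 1.32 and passed (n = 3 pools, edgeR quasi-likelihood Benjamini-Hochberg adjusted p = 0.00101), so 1 library decides this call. Over all alternatives the difference ran from 0.70 to 1.32 and the adjusted p from 1.16e-13, with no count filter, to 0.9999, with DESeq2. Of the 11057 genes tested 0.434% passed.

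None of the 9 members tested passed between female and male cells, and 1, Nnat, had an unadjusted p under 0.05 beside 8.36% of all genes. Impact was higher in female cells of 4 of 4 samples, by 0.16 ± 0.09 (log2 ± SE, n = 4 pools, edgeR quasi-likelihood Benjamini-Hochberg adjusted p = 0.701), and Plagl1, at 2.08 to 5.07 CPM, was the other such member. Of all genes tested 10.1% were higher in female cells of all 4 samples. Grb10 differed most between the sexes in mutant 2, at 11.9 CPM in its female and 39.1 CPM in its male cells, against 9.81 and 14.6 CPM in mutant 1. In control 1 it stood at 45.2 and 36.5 CPM and in control 2 at 49.3 and 35.3 CPM. Its female against male difference of −0.22 ± 0.26 (log2 ± SE) turned to 0.21 without mutant 2.

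**Figure D4:**
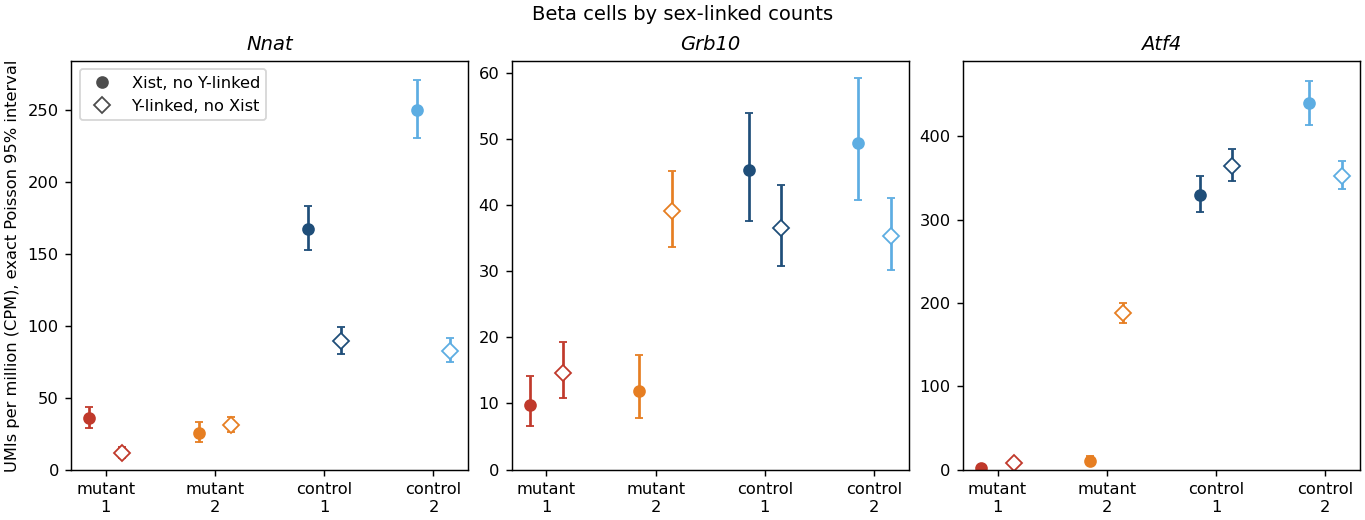
Nnat, Grb10 and Atf4 in UMIs per 1000000 UMIs (CPM, linear axes from 0) in female (filled circles, Xist without Y-linked counts) and male (open diamonds, Y-linked counts without Xist) beta-like cells, by sample, with exact Poisson 95% intervals that cover counting error only. Both controls have more Nnat in female cells, and the male cells of mutant 2 have more Atf4 and Grb10 than its female cells.

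Mutant 2 allowed the members to be read beside the Atf4 count of the same cells. Only cells over 8000 UMIs were used, so that a count of 0 carries weight. Nnat stood at 19.5 CPM (exact Poisson 95% interval 15.5 to 24.3) in the 246 cells of mutant 2 with no Atf4 UMI and at 48.9 CPM (41.2 to 57.8) in the 147 cells with at least 3, a ratio of 2.50 (1.89 to 3.33). In control cells with at least 3 Atf4 UMIs it stood at 151 and 156 CPM, and in the 403 cells of mutant 1 with none at 29.5 CPM. In the controls, cells with no Atf4 UMI stood at 105 CPM (58.9 to 173) in 14 cells of control 1 and 99.9 CPM (64.0 to 149) in 22 cells of control 2. In mutant 1 the 19 cells with 1 to 2 Atf4 UMIs held 5 Nnat UMIs, a level of 3.91 to 28.1 CPM by that interval, where its cells with none stood higher. Within male cells alone, mutant 2 had 15.3 CPM (8.91 to 24.5) with no Atf4 UMI and 37.0 CPM (29.7 to 45.7) with at least 3, where male cells of controls 1 and 2 had 93.5 and 86.4 CPM. Nnat in cells of mutant 2 with Atf4 counts thus lay above that in its cells without and below that in control cells of the same sex.

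Grb10 stood at 13.03 CPM (9.79 to 17) in cells of mutant 2 with no Atf4 UMI and at 44.7 CPM (37.3 to 53.2) in those with at least 3, a ratio of 3.43 (2.48 to 4.81). Control cells with at least 3 had 37.8 and 35.8 CPM, and cells of mutant 1 with none 10.1 CPM. Within male cells of mutant 2 it was 18.0 CPM (10.99 to 27.8) with none and 45.1 CPM (36.9 to 54.6) with at least 3. Unlike Nnat, Grb10 in the cells of mutant 2 with Atf4 counts was not below its level in the matching control cells. The corresponding ratios were 0.892 (0.751 to 1.06) for Impact and 1.28 (1.06 to 1.54) for Mirg, with Peg3 at 1.18 (1.12 to 1.25), Rian at 1.16 and both Meg3 and Gnas at 1.09. The intervals cover counting error only, since the cells are from 1 pool, and the cells with Atf4 counts were nearly all male, with 2 female cells and 123 male cells among those with at least 3.

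**Figure D5:**
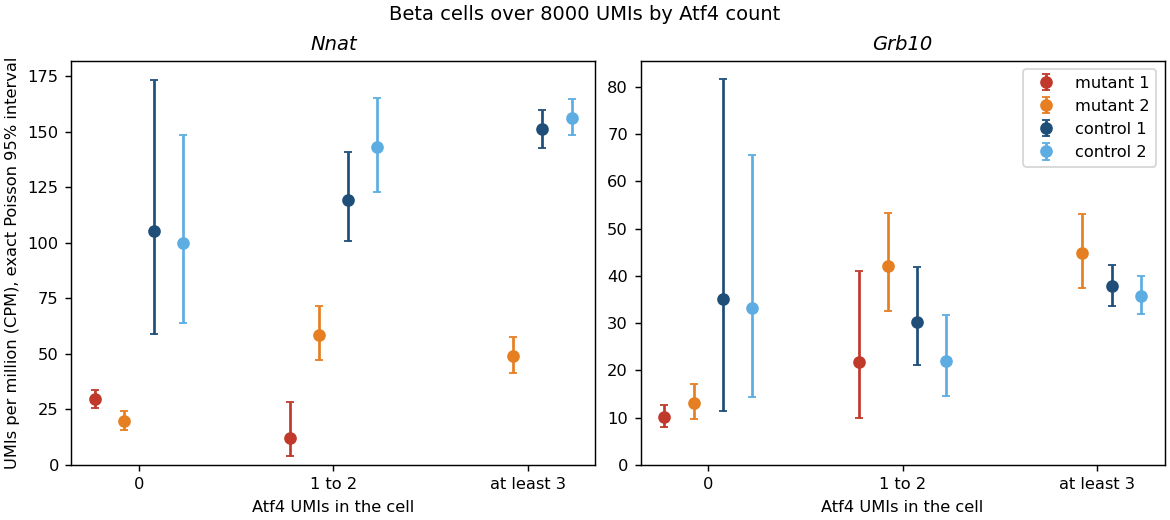
Nnat and Grb10 in UMIs per 1000000 UMIs (CPM, linear axes from 0) in beta-like cells over 8000 UMIs with 0, 1 to 2 and at least 3 Atf4 UMIs, by sample, with exact Poisson 95% intervals and no point for sets under 10 cells. In mutant 2 the Grb10 points with Atf4 counts lie at or above those of the controls, while its Nnat points stay below them.

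A list of 49 other imprinted genes was used for comparison, of which 43 are among the symbols and 33 could be tested in beta-like cells. The potassium channel gene Kcnq1 and the noncoding RNA Airn rose and none fell by edgeR, beside 0.378% of all genes that rose and 0.124% that fell. Kcnq1 stood at 130.2, 102, 57.5 and 56.1 CPM in the 4 pools. Its log2 change was 0.91 ± 0.13 (SE, n = 2 per group, edgeR quasi-likelihood Benjamini-Hochberg adjusted p = 0.0293). Airn stood at 98.4, 80.5, 44.8 and 48.1 CPM, and its log2 change was 0.82 ± 0.12 (SE, n = 2 per group, edgeR quasi-likelihood Benjamini-Hochberg adjusted p = 0.0293). Without mutant 1, or with classes taken from Leiden clusters, neither passed, and Airn did not pass with a replicate block. DESeq2 called both and, as lower, Zim1. Without control 1, 4 genes of the list passed. Kcnq1 and Airn each overlap a gene on the other strand. Kcnq1ot1 lies within Kcnq1 (chromosome 7), and Igf2r overlaps part of Airn (chromosome 17). Reads of such pairs cannot be told apart where they overlap. Igf2r, under its own symbol, stood at 58.6, 54.4, 43.1 and 43.4 CPM in the beta-like sums of the 4 pools. The median change of the 33 genes was 0.04, beside 0.01 for all genes. In alpha-like cells 1 of 25 such genes passed, the zinc finger gene Zim1, which fell in the mutants. It stood at 68.0, 60.8, 122 and 135 CPM in the 4 pools (log2 change −1.02 ± 0.20 SE, n = 2 per group, edgeR quasi-likelihood Benjamini-Hochberg adjusted p = 0.0236). The call was lost without control 2 (0.151) and with the second hormone held under 10% of the first (0.0719).

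Genes that act with the members were listed in 5 groups, and none of these genes passed in beta-like cells by edgeR. In all, 14.5% of genes tested had an unadjusted p under 0.05. Of 21 signal peptidase and translocon genes, the partners of Nnat at the endoplasmic reticulum, 3 had an unadjusted p under 0.05, and the median change was 0.04, with the translocation factor Sec63 at 0.46 ± 0.12 and Srp19, of the signal recognition particle, at 0.49 ± 0.17 (log2 ± SE). Of 11 genes that keep imprints 1 had an unadjusted p under 0.05, the corepressor gene Trim28 at −0.30 ± 0.11, with the histone methyltransferase gene Setdb1 at 0.32 ± 0.16 (median 0.07). Of 9 genes of Gcn2 and its target eIF2, on which Impact acts, 1 had an unadjusted p under 0.05, Eif2b3 at 0.38 ± 0.14, with Eif2s2 at −0.24 ± 0.12 (median 0.07). Of 11 genes of insulin receptor signalling, which Grb10 restrains, 2 had an unadjusted p under 0.05, with the kinase subunit gene Pik3r1 at 0.50 ± 0.14 (median 0.07). Of 18 genes of Gs and cAMP signalling, in which Gnas acts, 4 had an unadjusted p under 0.05, with the G protein subunit gene Gng12 at 0.52 ± 0.12 and the kinase subunit gene Prkar2a at 0.43 ± 0.12 (median −0.07). DESeq2 called 1 gene in these 5 groups, Gng12, and limma-voom none.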

How the data were processed

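The deposited files hold whole-number UMI counts per gene symbol and barcode. The authors made these counts before deposit, and per the submitters' processing notes mm10 and Seurat were used. Per the labels' protocols the cells were encapsulated by inDrops and sequenced on a NovaSeq 6000 instrument. Aligner, counter and annotation are not given in the sources used here. The highest single values, 4078 to 4093, lie just under 4096, the number of 6-base sequences, and the UMI length is not given in the sources used here. Members, lists and tests were chosen with earlier results of these data known.

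Barcodes needed 500 detected genes or more and a mitochondrial share below 20%. A cell's share of insulin (Ins1 and Ins2), Gcg, Sst or Ppy counts was divided by the median share in the 100 cells highest for it. The class needed a value of at least 0.2 with the next hormone under 1/3 of it. No doublet caller was run, and barcodes with 2 hormones were left out. Endothelial-like and macrophage-like cells needed at least 3 of their markers and 0.5% of UMIs. Sums of counts over the cells of a class in each sample went into edgeR 4.0.16 under R 4.3.3 (quasi-likelihood, filterByExpr, TMM, Benjamini-Hochberg adjustment, threshold 0.05). DESeq2 1.42.0, limma-voom (limma 3.58.1), other filters, other classes and leaving out each sample were the alternatives. With 2 pools per group, p-values measure the spread between these pools. The chi-square per degree of freedom between replicates was 10.8 in mutants and 13.1 in controls, more than sampling noise gives. Intervals are at 95% and cover counting error only. Genes were named by fixed rules: all members, up to 6 called genes of each list or else the 2 of lowest p, and the 5 most like Nnat and Meg3. The result of 1 gene so named is not reported here. On simulated data with the real means the edgeR fit of beta-like cells (13696 genes) recovered 88% of 2-fold and 100% of 4-fold changes. It also made 27 wrong calls. The fit of sex (11140 genes) recovered 99% and 100%, with 21 wrong calls. These values hold for the simulated data alone. Positions are from GENCODE vM21 (GRCm38), which matched 97.3% of symbols. Python 3.11.15, scanpy 1.11.5 and scipy 1.17.1 were used.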

Additional observations from a re-analysis of the deposited data

Results flagged for a closer look

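The fitted mutant effect on Grb10 was not the same size in beta-like and alpha-like cells. The log2 change in beta-like cells minus that in alpha-like cells was −1.12 ± 0.25 (SE, n = 2 per group), and it is listed because it was among the 0.216% of the 13443 genes past the threshold for this difference in an edgeR fit with the sample as a block. Grb10 was chosen on mutant against control sums, which this difference uses, so it is a description and nothing is read from the threshold. It was −0.45 without mutant 1 and −1.96 without mutant 2. The same difference for Nnat was −1.95 ± 1.26 (SE), with 6 Nnat UMIs in all alpha-like cells, and ran from −3.39 without mutant 2 to 4.23 without mutant 1.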

How the results depend on the processing

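With 2 pools per group and a mutant 2 that kept Atf4 in part of its beta-like cells, counts of calls moved with most choices. The Nnat log2 change in beta-like cells lay between −2.64 and −2.12 in all 15 alternatives. In beta-like cells 69 genes passed, against 245 with DESeq2, 194 with library totals, 257 with no count filter, 17 with Leiden clusters and 31 to 507 with 1 sample left out (31 and 170 when mutant 1 or 2 was dropped, 507 and 467 when control 1 or 2 was). In alpha-like cells 21 passed, against 40 with library totals, 90 with no count filter and 25 to 86 with 1 sample left out (57 and 81 when mutant 1 or 2 was dropped, 86 for control 1). In delta-like cells 1 passed, against 3 with library totals, 19 with no count filter, 4 with the second hormone under 10% and 6 to 19 with 1 sample left out (19 and 16 without mutants 1 and 2, 17 and 6 without controls 1 and 2). For beta-like minus alpha-like changes 29 passed, against 64 with no count filter, 48 with the second hormone under 10% and 26 to 71 with 1 sample left out (71 without mutant 2, 50 without control 2). Between female and male cells 48 passed, against 27 with DESeq2, 237 with no count filter and 18 to 61 with 1 sample left out (18 without control 2), while the Peg3 difference turned negative without mutant 1 (range −0.054 to 0.20 with 1 sample left out) and that of Grb10 positive without mutant 2 (range −0.55 to 0.21). The Nnat share of cells was 23.2% in controls and 5.52% in mutants at 3000 UMIs, 14.3% and 3.42% at 1500 UMIs and 37.1% and 10.49% at 6000 UMIs. The number of members with all beta-like sums above all alpha-like sums was 2, and 0 with Leiden clusters, where cells with 2 hormones are not removed. The causes were not tested. Replicate numbers did not pair the samples (correlation of same-numbered deviations −0.02), and with a replicate block 76 genes passed in beta-like cells.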

Other observations

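Values that no comparison above uses concern lists between female and male beta-like cells. Of 21 signal peptidase and translocon genes, which act with Nnat on secreted proteins, none passed between the sexes by edgeR or DESeq2 and 5 had an unadjusted p under 0.05, all lower in female cells, beside 8.36% of all genes in either direction. Their median log2 difference was −0.16, with 18 of 21 below 0, beside a median of −0.0014 and 5571 of 11057 below 0 for all genes. Ssr3, of the translocon-associated complex, was at −0.48 ± 0.11 and the signal peptidase subunit gene Sec11c at −0.39 ± 0.09 (log2 ± SE, n = 4 pools). Among other imprinted genes Igf2, which encodes an insulin-like growth factor, was at 0.79 ± 0.22 (log2 ± SE, n = 4 pools), and none of the 28 tested passed by edgeR.

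In alpha-like cells 4 of 11 genes of insulin receptor signalling had an unadjusted p under 0.05, all higher in the mutants, beside 9.74% of all genes, and none passed by edgeR. Grb14, an adaptor related to Grb10, stood at 73.6, 69.4, 35.2 and 37.8 CPM in the 4 pools, and the receptor gene Igf1r at 100.4, 99.4, 54.7 and 67.0 CPM.

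Several other imprinted genes differed in level between hormone classes. Rasgrf1 averaged 154 CPM in beta-like, 5.39 CPM in alpha-like and 107 CPM in delta-like cells. Sgce averaged 3.59, 92.7 and 129 CPM in the same order, and Mest 2.16, 7.01 and 60.0 CPM. These genes were chosen after their values were seen.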
